A study of Mus musculus with 8 samples.

Results

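The genes described here are the 4 Argonautes (Ago1, Ago2, Ago3 and Ago4), the RNases Dicer1 and Drosha with their partners Tarbp2 and Dgcr8, and the Argonaute-binding proteins Tnrc6a and Tnrc6b. These 10 genes were chosen by symbol from the 52502 genes to which the deposited exon counts could be assigned. Of them 8 held enough counts to be tested, among 10673 tested genes in all, and Dgcr8 and Tarbp2 did not. The measurements are RNA-seq counts of fully grown mouse oocytes at the germinal vesicle (GV) stage, that is, arrested in meiotic prophase with an intact nucleus.

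Control oocytes came from C57BL/6 mice of genotype Kiaa1429F/+;Zp3-Cre and the conditional knockouts (cKO) from Kiaa1429F/F;Zp3-Cre mice. Kiaa1429, now called Virma, encodes a subunit of the enzyme complex that places N6-methyladenosine (m6A) on RNA. Zp3-Cre is a recombinase under an oocyte promoter that becomes active in growing oocytes, so RNA made before that point is not subject to it. Control oocytes carry the same recombinase and 1 floxed allele, and the comparison is therefore loss of 1 copy against loss of 2. Mice were labelled as 20 days old (3 weeks in another label) and were given 5 IU of PMSG, a gonadotropin that promotes follicle development, 48 hours before collection. Each of the 8 libraries, 4 per group, pooled about 20 oocytes of at least 70 µm. The sample records name 4 separate experiments, but do not state whether same-numbered libraries share 1. Which mice gave which library is not stated, so the spread between libraries may be partly technical.

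Argonaute proteins hold short guide RNAs and are led by them to matching transcripts. Drosha with Dgcr8 cuts microRNA precursors in the nucleus, Dicer1 with Tarbp2 cuts the precursors or long double-stranded RNA in the cytoplasm, and the Tnrc6 (GW182) proteins link a bound Argonaute to the deadenylases that shorten poly(A) tails. In mouse oocytes Dicer1 and Ago2, the Argonaute able to cut a target, are known for a pathway of endogenous small interfering RNAs, whereas repression by microRNAs is weak. A short Dicer1 form started inside the gene and a short Ago2 transcript have been described in these cells.

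Virma fell to 28.6% of the control level, from 67.9 ± 11.2 to 19.4 ± 3.26 CPM (counts scaled to a common library size; mean ± SD, n = 4), and every library went with its label. Counts on exons were 4247471 to 5064008 per library. They are a minor part of the reads that met 1, more than 1 or no exon ID, which form the total here. Of that total, 72.9% to 80.4% met more than 1 exon ID and were set apart as ambiguous, and 5.01% to 12.0% met none. Other summary classes are not in the total. Reads outside all exon IDs went from 11.003% ± 0.883 in controls to 5.77% ± 0.531 in the cKO (n = 4 each), and ambiguous reads from 73.8% ± 1.07 to 79.3% ± 0.751. The part of these shifts in the results below was not tested. Marker calls stand beside 27% higher and 27.9% lower among all tested genes. The 10 oocyte markers were all detected and tested, and 1 was higher and 4 lower in the cKO. Their sum ranged from 35084 to 47670 CPM in controls and from 19940 to 23509 CPM in the cKO. The test took in 10 of 16 cumulus and granulosa markers and called 4 higher and 3 lower. Nr5a1 was at 0, and the sum ranged from 241 to 417 CPM in controls and from 453 to 749.5 CPM in the cKO. Summed over 8 markers, theca and stroma genes stood at 6.21 to 9.01 CPM in controls and at 4.43 to 5.99 CPM in the cKO. Only 1 of them was tested, and it was not called. The 12 vessel, blood and immune markers summed to 8.51 to 14.5 CPM in controls and to 12.1 to 22.1 CPM in the cKO. Of these, 4 were tested, with 2 called higher and 1 lower, and Adgre1, Cd74, Hba-a1, Hbb-bs and Ptprc were at 0. The part of these other cells in the levels below was not tested. In pools of oocytes, fewer cells and less RNA per cell cannot be told apart.

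Small RNA genes moved in opposite directions. Of the 8 tested genes 4 were higher in the cKO (Ago1, Ago3, Ago4 and Tnrc6a) and 3 lower (Ago2, Dicer1 and Tnrc6b), by the quasi-likelihood test of edgeR at an adjusted p under 0.05. Over all tested genes 27% were higher and 27.9% lower, 54.9% in all. A log2 ratio below is the fitted difference of cKO against control, ± its SE. The library values of the groups did not overlap for any of the 8 genes, which held for 50.1% of all tested genes. The median log2 fold change of the 8 was 0.19, against 0.02 for all tested genes.

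**Figure D1:**
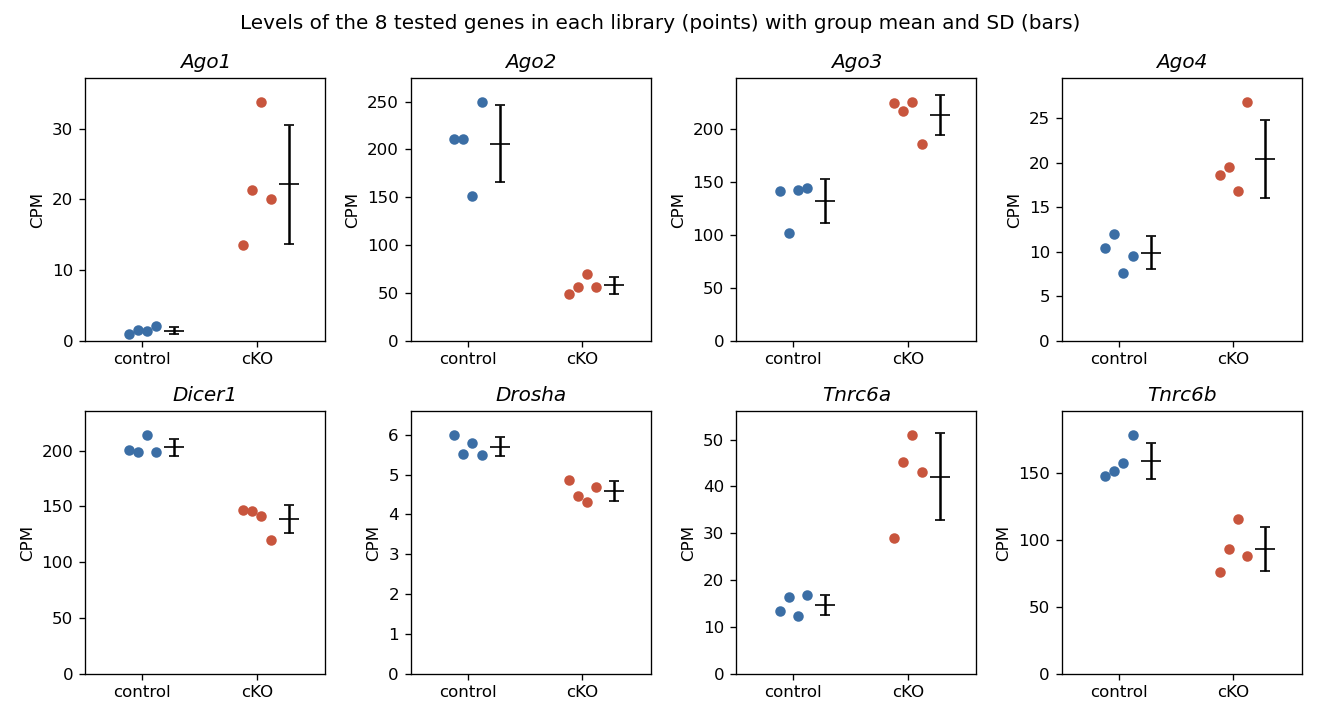
CPM of the 8 tested genes in each of the 4 control and 4 cKO libraries (1 point per library; bars, mean ± SD; each axis starts at 0). Ago1, Ago3, Ago4 and Tnrc6a lie higher in every cKO library, and Ago2, Dicer1, Drosha and Tnrc6b lie lower, Drosha at a level of 4.30 to 5.99 CPM at which the test did not pass.

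Ago2, the slicing Argonaute (chr15:73095844-73184935, mm10, minus strand), stood at 211, 211, 152 and 249 CPM in control replicates 1 to 4. In the cKO it stood at 48.3, 56.3, 69.9 and 56.0 CPM. Every cKO library lay far below the lowest control, and the mean fell to 27.99% of the control level. As a log2 ratio this was -1.84 ± 0.17 by edgeR, with an adjusted p of 5.22e-07.

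This fall lay on 2 short exons near the 5′ end and not on the last exon. The full-length coding transcript of Ago2 has 19 exons. Exon 2 (chr15:73146370-73146565, coding) held 443, 372, 260 and 459 counts in the controls and 32, 44, 35 and 31 in the cKO. Exon 3 (chr15:73137993-73138113, coding) held 335, 315, 208 and 404 counts against 27, 24, 22 and 25. In CPM, exon 2 fell from 92.7 ± 18.5 to 7.59 ± 1.501 (log2 ratio -3.61 ± 0.21 by edgeR, adjusted p = 8.97e-09). Exon 3 fell from 76.4 ± 18.4 to 5.23 ± 0.624 CPM (log2 ratio -3.87 ± 0.22 by edgeR, adjusted p = 8.54e-09). The last exon, 19, went the other way in its mean without passing the test. It held 168, 194, 106 and 133 counts in the controls and 157, 195, 264 and 239 in the cKO, and the groups overlapped (log2 ratio 0.32 ± 0.20 by edgeR, adjusted p = 0.190). Over all 14052 tested exons, 26.2% were higher and 27.3% lower, 53.5% in all.

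The sequence of exon 3 is shown because it had the lowest log2 ratio of the tested exons of these genes. It covers bases 219 to 339 of the coding sequence and is given 5′ to 3′ on the coding strand, from the GENCODE M21 transcripts (GRCm38). GGACT, the core of a well-known m6A motif, was searched on the coding strand only and would be in capitals; exon 3 holds no match.
Ago2 exon 3: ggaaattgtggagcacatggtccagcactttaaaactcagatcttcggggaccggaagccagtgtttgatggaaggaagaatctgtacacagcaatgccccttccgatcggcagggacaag
Of all 1538 tested internal exons of at most 200 bases, 15.2% hold GGACT at least once. A match would describe the letters only, and no match says nothing of methylation in this exon or elsewhere in the transcript. Other forms of the motif were not searched.

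The 15 exons between, 4 to 18, held 10 counts in all controls together and 12 in all cKO libraries, at most 2 in any exon and library, although all of their 2135 bases are free of other exon IDs in the files. The option used for counting is not given, but under the usual rule of HTSeq a read pair that joins a pair of listed exons is ambiguous. Under that rule the counts of exons 2 and 3, of 196 and 121 bases, come from read pairs that touch 1 listed exon and no other, whether within it, into an intron or into an exon the files do not list. GENCODE M21 holds an exon of the last kind: transcript Ago2-203 starts with an exon (chr15:73177769-73177847) absent from the files and goes on through the coordinates of exons 2, 3 and 4 and part of exon 5. This exon adjoins exon 2 in Ago2-203, whereas both neighbours of exon 3 there lie at coordinates that the files list. The counts do not tell these cases apart.

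Among the 1538 tested internal exons of at most 200 bases, 33.5% were lower and 18.6% higher in the cKO, with a median log2 fold change of -0.29. Of them, 14 (0.910%) had a log2 fold change as low as that of Ago2 exon 2, itself and exon 3 included. The share of counts within Ago2 changed as well. Over its 3 tested exons the last exon took 17.9% ± 3.56 of counts in controls (13.4% to 22.0%) and 77.5% ± 4.81 in the cKO (72.7% to 82.2%). Its usage against the other exons rose (log2 ratio 2.14 ± 0.20) and the gene was called for unequal usage (adjusted p = 4.22e-09, diffSpliceDGE of edgeR with the Simes method), as were 23.4% of the 2847 genes with at least 2 tested exons. Counted by last exons only, an alternative chosen after seeing the data, Ago2 gave a log2 ratio of 0.25 ± 0.19 and was not called (adjusted p = 0.280 by edgeR; 6.65e-26 to 0.280 over all alternatives). By last exons only, 27.7% of 8737 tested genes were higher and 27.7% lower, 55.5% in all.

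**Figure D2:**
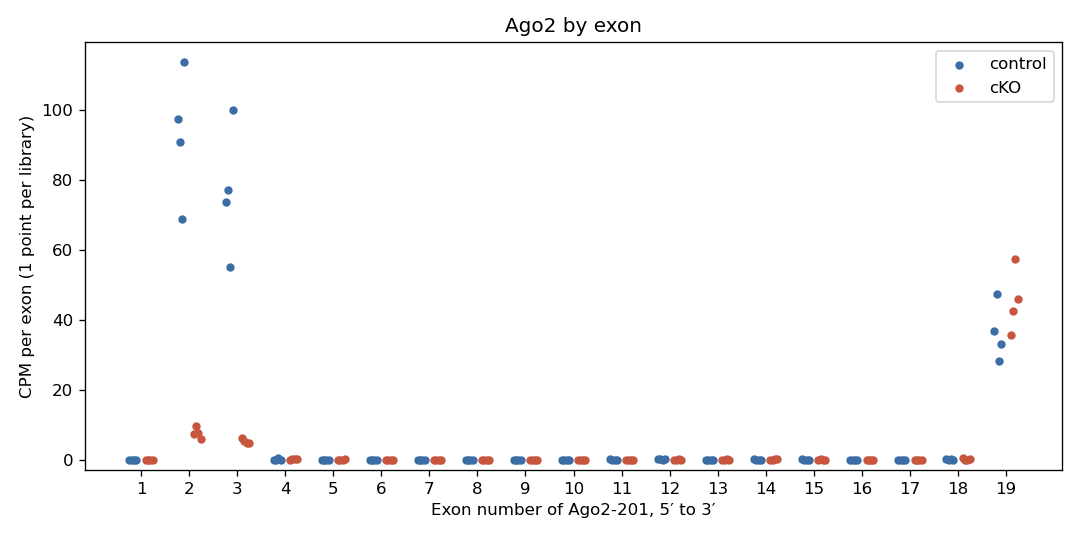
CPM of each of the 19 exons of the full-length Ago2 transcript, 5′ to 3′, with 1 point per library. Exons 2 and 3 are high in the 4 controls and low in the 4 cKO libraries, exons 4 to 18 are near 0 in both groups, and exon 19 overlaps between the groups.

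Ago1, Ago3 and Ago4, which lack or have little slicing activity, lie beside each other on chromosome 4 on the minus strand: Ago4 (126489541 to 126533472), then Ago1 (126435012 to 126468583), then Ago3 (126331704 to 126429556) in the direction of transcription. All 3 rose. Ago1 held 4, 6, 5 and 8 counts in the controls and 61, 100, 157 and 107 in the cKO, 23 against 425 in all. In CPM it went from 1.41 ± 0.459 to 22.1 ± 8.45 (log2 ratio 3.96 ± 0.35 by edgeR, adjusted p = 3.23e-07). The lowest cKO library, replicate 1 at 13.5 CPM, stood well above the highest control at 2.00 CPM. All but 1 of these counts fell on the last exon, the one exon of Ago1 that could be tested. Ago1 has 42 exon IDs in the files and 2 with any count.

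Ago4 stood at 10.4, 12.0, 7.63 and 9.51 CPM in the controls and at 18.6, 19.5, 16.8 and 26.8 CPM in the cKO. It rose (log2 ratio 1.04 ± 0.22 by edgeR, adjusted p = 0.000805), and so did its last exon alone (1.16 ± 0.24). Ago3 stood at 142, 101.3, 143 and 144 CPM in the controls and at 224, 217, 225 and 186 CPM in the cKO. It rose as well (log2 ratio 0.69 ± 0.14 by edgeR, adjusted p = 0.000806). Control replicate 2 was the lowest of its group, and the lowest cKO library still lay above every control.

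Within Ago3 the exons rose unequally. The last exon of the main coding transcript of Ago3, of 12851 bases, rose from 109.6 ± 18.03 to 161 ± 19.3 CPM (log2 ratio 0.56 ± 0.15). An alternative last exon of the non-coding transcript Ago3-206 (chr4:126397956-126398377), which lies between exons 5 and 6 of the coding transcript, held 69, 63, 73 and 84 counts in the controls and 242, 238, 217 and 275 in the cKO. It rose from 17.7 ± 2.83 to 51.6 ± 3.22 CPM (log2 ratio 1.55 ± 0.17 by edgeR, adjusted p = 2.74e-06). Another alternative last exon, of Ago3-205, between exons 6 and 7, held 74 control and 67 cKO counts and did not pass (log2 ratio -0.33 ± 0.29 by edgeR, adjusted p = 0.355). The Ago3-206 exon took 13.5% ± 1.88 of the counts on tested Ago3 exons in controls and 24.0% ± 2.92 in the cKO, and the groups did not overlap. Ago3 was called for unequal exon usage (adjusted p = 0.00357, diffSpliceDGE of edgeR). That call was lost without a filter on low counts (adjusted p = 0.0592) and ranged from 0.00294 to 0.0592 over all alternatives.

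The end of the Ago3-206 exon is shown because an annotated 3′ end is usually preceded by a poly(A) signal. Its last 30 bases (chr4:126397956-126397985, minus strand, GRCm38) hold no AATAAA, which would be in capitals, and neither do its last 40, whereas 59.1% of the 7569 tested last exons hold 1 there.
Ago3-206 end: aaaatcatcagctcttactagatgtcacct
No match says only that these letters are not in this window.

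**Figure D3:**
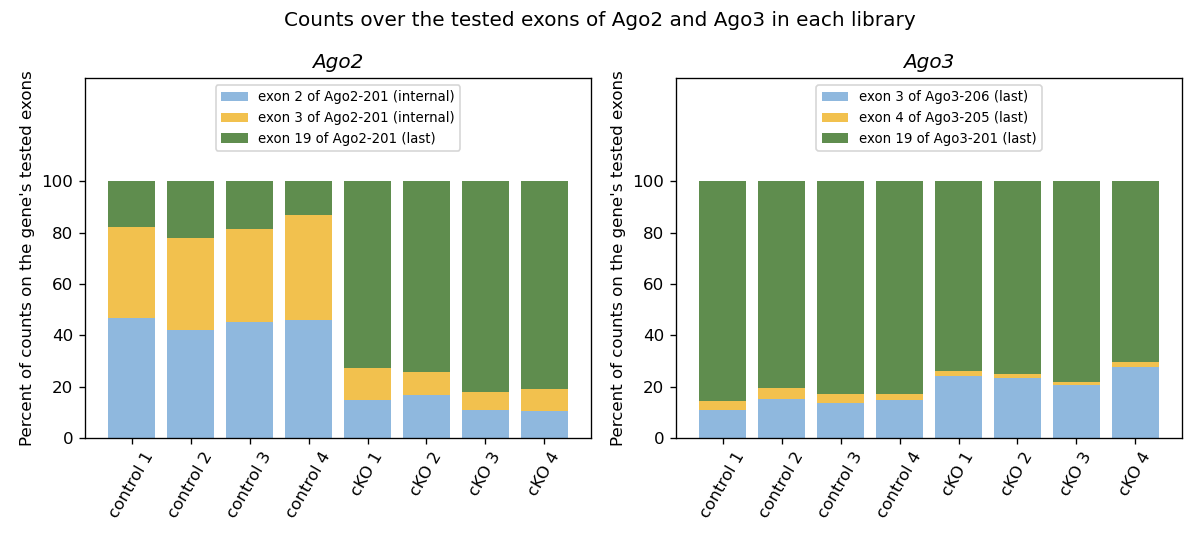
Share of each tested exon in the counts on the tested exons of Ago2 (left) and Ago3 (right), in percent, for each library. The Ago2 last exon goes from 13.4% to 22.0% in controls to 72.7% to 82.2% in the cKO, and the Ago3-206 exon from 10.9% to 15.0% to 20.7% to 27.8%.

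The 4 Argonautes share their 3′ gene structure. Each last exon begins with 106 coding bases before the stop codon, the rest being 3′ UTR. These bases are shown because the Argonautes are paralogs whose reads could be confused (5′ to 3′, coding strand, GENCODE M21, GRCm38); capitals mark the 66 positions at which all 4 carry the same base.
Ago1: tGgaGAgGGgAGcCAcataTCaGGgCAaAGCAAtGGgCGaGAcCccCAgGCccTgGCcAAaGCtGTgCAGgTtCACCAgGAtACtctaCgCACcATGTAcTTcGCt
Ago2: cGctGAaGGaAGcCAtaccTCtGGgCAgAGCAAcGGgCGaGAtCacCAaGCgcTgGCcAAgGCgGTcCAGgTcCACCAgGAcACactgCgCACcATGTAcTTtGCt
Ago3: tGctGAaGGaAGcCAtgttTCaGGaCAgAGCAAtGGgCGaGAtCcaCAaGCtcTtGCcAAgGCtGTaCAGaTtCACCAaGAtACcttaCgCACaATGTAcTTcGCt
Ago4: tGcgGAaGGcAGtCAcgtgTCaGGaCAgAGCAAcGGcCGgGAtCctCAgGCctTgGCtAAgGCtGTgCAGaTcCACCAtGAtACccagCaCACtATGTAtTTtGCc
Between pairs of Argonautes 72.6% (Ago2 and Ago4) to 80.2% (Ago1 and Ago3) of the 106 bases are identical. The other exon bases were not compared, and whether reads were placed on the wrong copy was not tested.

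The Argonaute level summed over all exons overlapped between the groups while its makeup differed. Ago1 to Ago4 together stood at 303 to 405 CPM in the controls and at 289 to 346 CPM in the cKO. That sum includes Ago2 exons 2 and 3, at 92.7 and 76.4 CPM in controls and 7.59 and 5.23 CPM in the cKO. On the main last exons every mean was higher in the cKO, though Ago2 was not called. Control and cKO means there were 1.41 and 22.5 CPM for Ago1 and 36.3 and 45.3 for Ago2. For Ago3 they were 109.6 and 161 CPM, and for Ago4 8.56 and 19.2. Per kilobase of countable bases, that is, exon bases that no other exon ID overlaps, Ago2 made up 51.2% to 64.3% of the Argonaute sum in the controls and 15.0% to 17.6% in the cKO. Ago3 went from 27.2% to 42.4% in the controls to 49.6% to 61.5%, Ago4 from 4.75% to 7.30% to 8.44% to 16.2%, and Ago1 from 0.702% to 1.42% to 11.9% to 24.1%. On last exons alone the picture was different for Ago2, at 18.5% to 30.4% in the controls and 13.1% to 15.6% in the cKO, and for Ago3, which led both groups at 45.2% to 67.0% and 37.6% to 52.7%. These shares are a description, with no test.

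**Figure D4:**
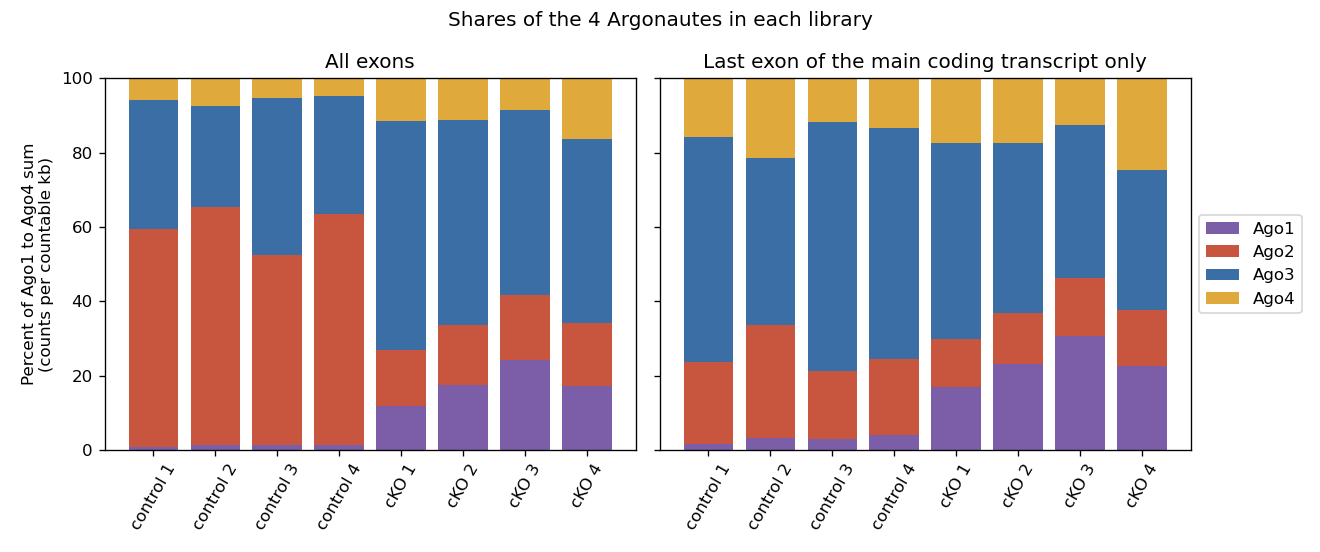
Percent of each Argonaute in the sum of the 4, by counts per countable kilobase, for each library, from all exons (left) and from the last exon of the main coding transcripts only (right). Ago2 is the largest part of the 4 control bars on the left but not on the right, and Ago1 is larger in every cKO library than in any control on both sides.

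Dicer1, which cuts hairpin precursors and long double-stranded RNA (chr12:104687742-104751952, minus strand), fell. It stood at 200.9, 198, 214 and 199 CPM in the controls and at 147, 146, 141 and 120.02 CPM in the cKO, a mean of 68.3% of the control level. The edgeR log2 ratio was -0.55 ± 0.12 at an adjusted p of 0.00136. Its last exon held 94.9% of its counts in controls and fell too (log2 ratio -0.52 ± 0.13 by edgeR, adjusted p = 0.00286). The last exon of Dicer1-202, a retained-intron transcript whose 6737 bases run over exons 6 to 8 of the coding transcript, had 144 counts in controls and 111 in the cKO (log2 ratio -0.57 ± 0.28 by edgeR, adjusted p = 0.0989). It took 4.38% ± 1.93 of the counts on the tested Dicer1 exons in controls and 4.23% ± 0.862 in the cKO, and unequal usage was not called for Dicer1 (adjusted p = 0.9999, diffSpliceDGE of edgeR). A separate first exon of the short oocyte Dicer1 form was not analysed here.

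Drosha, the nuclear RNase of microRNA precursors, was measured at 5.99, 5.51, 5.79 and 5.50 CPM in the controls and 4.87, 4.46, 4.30 and 4.68 CPM in the cKO. Although the groups did not overlap, the difference did not pass (log2 ratio -0.31 ± 0.23 by edgeR, adjusted p = 0.258), at 20 to 27 counts per library. Most of its control counts (66.0%) lay on the last exon of Drosha-205, a retained-intron transcript, which did not pass (log2 ratio -0.65 ± 0.27 by edgeR, adjusted p = 0.0575). By last exons only, an alternative chosen after seeing the data, Drosha was called lower (log2 ratio -0.76 ± 0.27 by edgeR, adjusted p = 0.0264; 0.0264 to 0.575 over all alternatives).

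Dgcr8, the RNA-binding partner of Drosha, had 1 count in all controls and 3 in all cKO libraries over 38 exon IDs. Tarbp2, the double-stranded RNA-binding partner of Dicer1, had 3 to 9 counts per library, 25 in all controls and 22 in all cKO libraries over 43 exon IDs. Neither gene was tested, and their countable bases number 1912 and 2308, beside 2650 for Drosha.

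The 2 Tnrc6 genes moved apart. Tnrc6a (chr7:123123885-123195296, plus strand) stood at 13.3, 16.3, 12.4 and 16.8 CPM in the controls and at 29.0, 45.3, 50.9 and 43.1 CPM in the cKO, where replicate 1 was lowest. It rose (log2 ratio 1.52 ± 0.20 by edgeR, adjusted p = 1.74e-05). Its last exon rose alike (1.52 ± 0.21), and the first exon of Tnrc6a-209, a non-coding transcript, went from 15 counts to 65 (log2 ratio 1.88 ± 0.40 by edgeR, adjusted p = 0.00104). The ratio of these exons was not called different between the groups (adjusted p = 0.9999, diffSpliceDGE of edgeR).

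Tnrc6b (chr15:80711313-80941085, plus strand) stood at 148, 152, 158 and 178 CPM in the controls and at 76.2, 93.3, 115 and 87.8 CPM in the cKO, with no overlap. It fell (log2 ratio -0.77 ± 0.15 by edgeR, adjusted p = 0.000412). Its last exon, of 11997 bases, fell from 109.6 ± 5.89 to 58.3 ± 7.10 CPM (log2 ratio -0.91 ± 0.14 by edgeR, adjusted p = 6.35e-05). Exon 5, an 88-base coding exon, fell from 21.8 ± 5.86 to 12.1 ± 3.72 CPM (log2 ratio -0.85 ± 0.26 by edgeR, adjusted p = 0.0120). The long coding exon 8, of 2340 bases, held 62, 59, 71 and 82 counts in the controls and 36, 82, 106 and 78 in the cKO. These groups overlapped, and the test did not pass (log2 ratio -0.06 ± 0.27 by edgeR, adjusted p = 0.858). Exons 1 and 7 had log2 fold changes of -0.37 and -0.35 and did not pass. Against the other exons of Tnrc6b, the usage of exon 8 was higher in the cKO (log2 ratio 0.69 ± 0.23, adjusted p = 0.0444 over exons, diffSpliceDGE of edgeR). For the gene as a whole, unequal usage was not called (adjusted p = 0.110 by the Simes method). With last exons left out, Tnrc6b was no longer called (log2 ratio -0.27 ± 0.23 by edgeR, adjusted p = 0.353; 1.35e-05 to 0.353 over all alternatives). Of the genes described here, 3 could then be tested, Tnrc6a was higher and Ago2 lower, beside 23.2% higher, 23.8% lower and 47% in either direction among the 4189 genes tested.

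**Figure D5:**
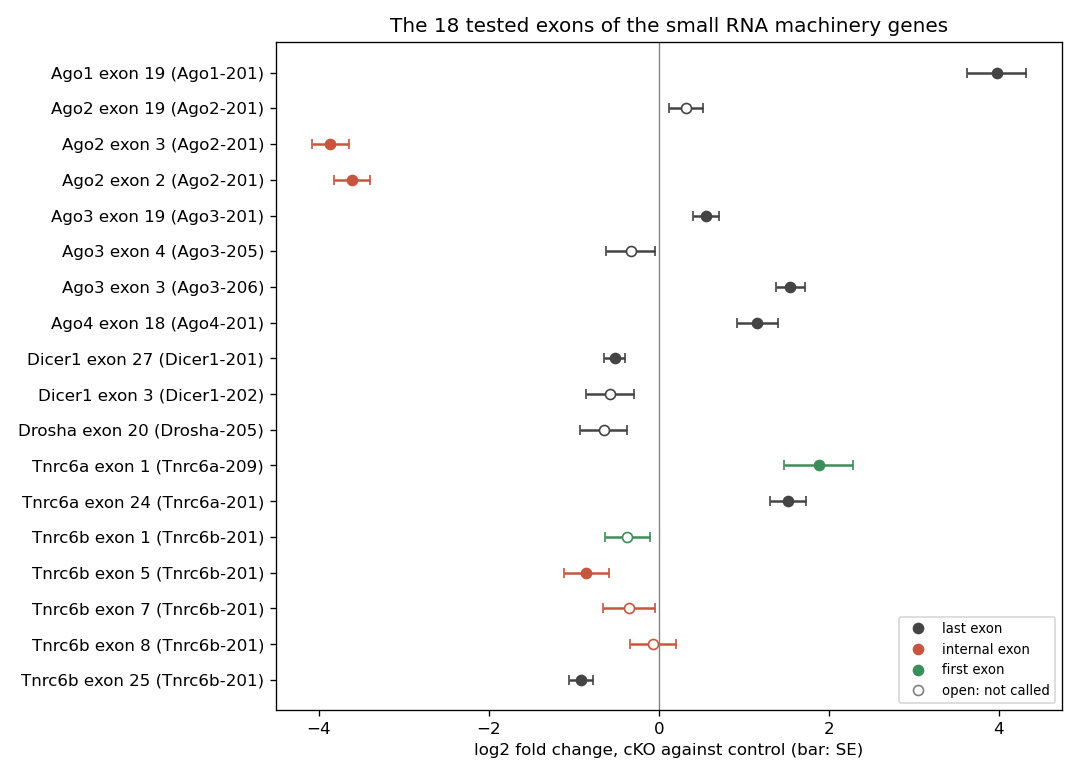
Log2 fold change (cKO against control) of the 18 tested exons of these genes with its SE, coloured by exon kind; open circles did not pass. Exons 2 and 3 of Ago2 lie at -3.61 and -3.87 while its exon 19 lies at 0.32, and the last exon of Ago1 lies at 3.98.

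Of the 404 exon IDs of the 10 genes 71 held any count and 18 could be tested, of which 6 were higher, 5 lower and 7 did not pass, beside 26.2% higher and 27.3% lower among all tested exons. The last exons of the main coding transcripts of Ago1, Ago3, Ago4 and Tnrc6a were higher, those of Dicer1 and Tnrc6b lower, and that of Ago2 was not called. Of all 7569 tested last exons 32.3% were higher and 25.7% lower.

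Levels were compared between genes per countable kilobase. This divisor keeps exons that hold almost no counts, such as Ago2 exons 4 to 18, with 2135 countable bases and 10 control counts. Over all genes 85.3% of counts lay on last or only exons of a transcript. The order is therefore a rough description. In controls the order was Dicer1 (18.5 to 19.9 CPM per countable kilobase over libraries), Ago2 (11.2 to 18.4), Tnrc6b (8.59 to 10.3), Ago3 (6.57 to 9.34), Tnrc6a (2.26 to 3.07), Drosha (2.08 to 2.26), Ago4 (1.12 to 1.76) and Ago1 (0.186 to 0.419). Dgcr8 and Tarbp2, at 0 to 9 counts per library, were left out of the order. Ago1 was kept though it held only 4 to 8 counts per control library. There Tarbp2 (0.288 to 0.933) overlapped Ago1 and had the higher mean. Tnrc6b and Ago3 overlapped in their library ranges. Tnrc6a and Drosha met without overlapping. Dicer1 lay above Ago2 in every library, though only just above its highest value. In the cKO Ago3 (12.1 to 14.6) and Dicer1 (11.2 to 13.7) came first and overlapped. They were followed by Tnrc6a (5.31 to 9.32), Tnrc6b (4.42 to 6.69), Ago1 (2.83 to 7.06), Ago2 (3.56 to 5.14) and Ago4 (2.47 to 3.95), each overlapping its neighbour. Drosha (1.62 to 1.84) lay below these. By the last exon of the main coding transcript alone, Ago2 ranked below Dicer1, Tnrc6a, Tnrc6b and Ago3 in controls, at 2.56 to 4.33 CPM per countable kilobase. In the cKO that measure gave another order as well: Dicer1 (31.4 to 39.4) and Tnrc6a (20.4 to 37.0) came first and overlapped, and Ago3 (10.4 to 13.8) followed without reaching them.

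The m6A motif core GGACT was counted in the last exons of the main coding transcripts, as a description of letters and not of methylation. These exons hold most of the measured counts of the genes below, except that of Ago2 in controls, with 17.6% of its counts. Ago1 had 7 matches in 4600 bases (1.52 per kilobase), Ago2 13 (1.16), Tnrc6b 14 (1.17), Ago3 9 (0.700), Ago4 2 (0.528), Dicer1 3 (0.747) and Tnrc6a 2 (0.736). Over last exons in the same length class as Ago1 and Dicer1 the median was 0.845 per kilobase, and in the class of Ago2, Ago3 and Tnrc6b 0.760. Ago1, which was higher, Tnrc6b, which was lower, and the Ago2 last exon, which was not called, lay above the upper quartiles of their classes (1.15 for Ago1 and 1.01 for the other two). The share of last exons with at least 1 match was 98.3% and 100% in these classes.

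Other genes of the pathway were read from 4 lists. Of 13 tested microprocessor cofactors, nuclear factors and export genes 6 rose and 1 fell (46.2% and 7.69%, median log2 fold change 0.37). Among all tested genes the shares were 27% and 27.9%, with a median of 0.02. Ddx5 and Ddx17, RNA helicases that assist Drosha, rose from 222 ± 22.5 to 508 ± 35.9 CPM and from 35.7 ± 4.87 to 83.9 ± 19.7 CPM (log2 ratios 1.19 ± 0.12 and 1.23 ± 0.18). Srsf3, a splicing factor that aids precursor recognition, and Ncbp1, the large cap-binding subunit, rose by 0.80 and 1.36. Xpo5, which exports precursors from the nucleus, was the 1 that fell, from 10.9 ± 1.82 to 7.23 ± 1.70 CPM (log2 ratio -0.59 ± 0.23 by edgeR, adjusted p = 0.0407), and its groups overlapped.

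Of 9 tested Dicer partners and loading chaperones 2 rose and none fell (median log2 fold change 0.13). Hsp90ab1, a chaperone that holds Argonautes open for loading, rose from 78.4 ± 4.86 to 163 ± 24.6 CPM, and the co-chaperone Dnajb1 from 632 ± 184 to 929 ± 103 CPM. Of 24 tested silencing effectors and P-body genes 7 rose and 4 fell (median log2 fold change 0.20). Cnot9, the subunit of the CCR4-NOT deadenylase that binds Tnrc6 proteins, rose from 819.7 ± 33.6 to 1405 ± 135 CPM, and Cnot6, a catalytic subunit, and the helicase Ddx6 rose by 0.91 and 1.05. Cnot11 fell from 8.63 ± 2.51 to 3.15 ± 0.576 CPM. Of 17 tested turnover and modification genes 3 rose and 2 fell (median log2 fold change 0.15). Ppp6c, a phosphatase that acts on Argonautes, rose from 19.8 ± 9.01 to 105 ± 16.1 CPM. Mapkapk2 rose by 0.93, from 2.77 ± 0.981 to 5.30 ± 1.83 CPM (adjusted p = 0.0309 by edgeR), and its groups overlapped. Trim71, a repressor of mRNAs, fell from 1644 ± 209.8 to 983 ± 22.8 CPM, and Fem1b fell by 0.48. Together the lists had 63 tested genes, of which 28.6% were higher and 11.1% lower, against 27% and 27.9% of all tested genes. Of the 63, the 7 lower genes became 2 without scaling and 4 with the replicate block, and the 18 higher ones became 22 and 19. Over all 10673 tested genes, the 2973 lower ones became 2482 and 2908, and the 2883 higher ones 3499 and 2885.

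The genes most like Ago1 and Ago2 over the 8 libraries were read as a description; the libraries fall into 2 groups, which all these genes share. Among 7958 other named genes, Bbx, Slc16a6 and Cpt1a had the highest Pearson correlations of log2 CPM with Ago1 (0.997, 0.994 and 0.994), and Tceanc2, Trappc6b and Nxn with Ago2 (0.994, 0.994 and 0.991). As many as 434 genes correlated above 0.95 with Ago1 and 232 with Ago2, so the genes named stand out little from these.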

How the data were processed

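For each of 8 libraries the authors deposited a table of whole-number counts by exon ID. The submitters' processing notes list STAR, HTSeq and mm10; for versions, options and the annotation release, the sources used here say nothing. GENCODE M21 (GRCm38) gave genes to 494230 of 496288 exon IDs (99.6%), ignoring ID versions. The rest (0.252% of counts) and 5 summary rows were dropped. Gene sums passing filterByExpr (minimum count 10) were TMM-scaled and fitted on group alone with the edgeR 4.0.16 quasi-likelihood test in R 4.3.3. Tests were two-sided, with Benjamini-Hochberg adjustment over every tested feature. Exons were fitted in the same way, and their usage with diffSpliceDGE, its coefficients converted to log2. CPM uses the TMM-scaled totals. An SE is the log2 ratio divided by the root of F. The strand setting used for counting is not given, and countable bases were taken over both strands. The scripts were tested on simulated data. Amplified reads are not independent molecules, and 3 counts are 0.592 to 0.706 CPM. Alternatives covered scaling, filtering, DESeq2, exon choice, gene type, a replicate block and each library left out.

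The 10 genes, the lists and the markers were chosen with earlier results of these data known. Named are these genes, Virma, the markers, up to 4 called genes of smallest p per list with any gene changed alone in its direction, the 3 genes most like Ago1 and Ago2, and exons called or holding 10% of a gene's counts. The other tested exons of the 10 genes are named because they were tested. The sequence of Ago2 exon 2 is not reported here.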

Additional observations from a re-analysis of the deposited data

Results flagged for a closer look

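In 52 groups of 4 libraries, gene or exon, 4 held a library far from the others; chance flags about 1 in 20. Ago3 stood at 101.3 CPM in control replicate 2, with the next control at 142. Its last exon, which holds most of the same counts, stood at 82.6 CPM in that library, with the next at 117. Dicer1 stood at 214 CPM in control replicate 3, with the next at 200.9. The last exon of Dicer1-202 stood at 14.1 CPM in control replicate 4, with the next at 7.47. Reads that met more than 1 exon ID enter no test. They made up 79.3% of the read total defined above in the cKO and 73.8% in controls (means of 4).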

How the results depend on the processing

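Of 269 values under alternatives, 258 kept their direction and their side of the threshold or, for counts, stayed within 1.5 times. With last exons left out 4189 genes could be tested: 973 were higher (23.2%) and 995 lower (23.8%). Among the small RNA lists 31 genes could then be tested, 6 higher and 5 lower. Among the genes described 1 was higher (Tnrc6a) and 1 lower (Ago2) of 3, with Tnrc6b at -0.27. With last exons only, Ago2 turned to 0.25 and Drosha was called at -0.76. Lower list genes numbered 2 without scaling and 4 with the replicate block, instead of 7, of 63 tested. Over all 10673 tested genes the lower ones numbered 2482 and 2908, instead of 2973. Without a low-count filter 1 gene (Ago2) was called for exon usage. Leaving out single libraries moved Ago1 between 3.66 and 4.16, Ago2 between -1.96 and -1.75, Ago3 between 0.57 and 0.76, Ago4 between 0.90 and 1.14, Dicer1 between -0.58 and -0.47, Tnrc6a between 1.39 and 1.67 and Tnrc6b between -0.91 and -0.68, and changed no call among the 10 genes, while list genes ranged from 13 to 20 higher and from 5 to 9 lower. Omitting the scaling moved the median log2 fold change by 0.16. Same-numbered libraries correlated at -0.05 to 0.10 and only 2 of 4 controls correlated best with their own number, so numbers were not taken as pairs; with the replicate block Ago2 stood at -1.83 and the 4 higher and 3 lower genes were again called. Without last exons fewer genes were tested, Tnrc6b lost its call though tested, and the share called over all genes was 47% instead of 54.9%. The cause of these moves was not tested. Drosha had 20 to 27 counts per library, and Dgcr8 and Tarbp2 0 to 9.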

Other observations

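Some low counts belong in no comparison and were picked after their values were seen. Tarbp2 held 10 of its 25 control counts and 21 of its 22 cKO counts on the first exon of Tarbp2-208. Exon 30 of Drosha-201, a coding exon of 142 bases, held 16 counts in controls and 29 in the cKO, whereas the last exon of Drosha-205 held 62 and 45. The first 2 exons held too few counts to be tested, and the last exon of Drosha-205 was not called.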
